A study of Homo sapiens with 4 samples.

Results

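The genes described here are the 5 human genes that encode a YTH domain: YTHDF1, YTHDF2, YTHDF3, YTHDC1 and YTHDC2. They were taken from the deposited m6A site lists by gene name, and make up 5 of the 15209 gene names there. Together they had 138 of the 218950 sites listed in any library. By gene this was 30 sites in YTHDF1, 31 in YTHDF2, 38 in YTHDF3, 18 in YTHDC1 and 21 in YTHDC2. N6-methyladenosine (m6A) had been mapped by GLORI, a chemical method in which unmethylated adenosine is deaminated and read as G, while m6A resists the reaction and keeps its identity as A. Levels below are percentages of A among the A and G reads at a site. All libraries were made from messenger RNA of HEK293T, a transformed human embryonic kidney line, labelled wild type throughout. In the ascorbic acid group (n = 2) the cells received ascorbic acid for 36 h, starting 24 h after they were seeded, with fresh medium every 6 h; the control group (n = 2) is labelled as control alone. The labels attach 1 protocol text to both groups, and whether the control cells had the same medium changes is not stated. The sources used here give no dose of ascorbic acid. Nothing in the labels ties the 2 replicates of a group to separate cultures, and the p-values measure the spread between these 4 samples, which may be technical. Fisher's exact test on pooled reads, used as an alternative, takes no account of that spread.

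m6A is the commonest internal base modification of mammalian messenger RNA. The YTH domain is a fold that holds the methylated base in a pocket lined with aromatic residues, and proteins that carry it are called m6A readers. YTHDF1, YTHDF2 and YTHDF3 are closely related cytoplasmic proteins, of which YTHDF2 is best known for bringing the CCR4-NOT deadenylase to methylated transcripts. YTHDF1 has been linked to translation, and YTHDF3 to both activities. YTHDC1 is nuclear and acts in splicing and export of methylated RNA, while YTHDC2 is a large RNA helicase known from meiosis in germ cells. The transcripts of these readers carry m6A themselves, and those marks are what was measured here.

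For 3 of the listed sites the sequence could be read, because they lie in the RefSeq promoter windows of these genes (build GRCh38.p14, from 250 bases before to 49 bases after the annotated start). All but YTHDF3 had such a window. The sequences are shown because they place these sites relative to an annotated start: one lies on such a base, one before it and one after it. The capital letter is the listed adenosine, and each sequence runs 5′ to 3′ on the strand of the gene.
YTHDF2, chr1:28736926-28736954, plus strand: tgagctcttgggctAgagcgtcgccgagt
YTHDC2, chr5:113513669-113513697, plus strand: gccctggtgacgtcAttacgcccgcgctc
YTHDC1, chr4:68350043-68350071, minus strand: ttcgcgcaggaagcAggctccattttagc
YTHDF2 has 2 such windows, for 2 annotated starts. The YTHDF2 site, chr1:28736940, is the start base of the downstream window and lies 316 bases from the gene's first annotated base. It had levels of 18.4% and 13.2% in the ascorbic acid libraries (136 and 159 reads), against 14.3% and 16.2% in control (105 and 130 reads). The groups overlapped, and the site did not pass the test (log2 odds change 0.03, edgeR adjusted p = 0.966). As background, a first transcribed adenosine often carries an additional methyl group on its ribose (m6Am), and GLORI does not tell m6Am from m6A; which of these was present was not tested. The YTHDC2 site, chr5:113513683, lies 11 bases before the annotated start. It was listed at 50.0% and 57.7% with ascorbic acid (18 and 26 reads), and at 40.0% in control 2 (15 reads). It was not listed in control 1. Its adenosine is the last base of the palindrome TGACGTCA, the letters known as a cyclic AMP response element. Searched on both strands, which are the same letters for a palindrome, this motif was in 649 of 35116 windows of 300 bases (1.85%), among them the windows of YTHDC2 and YTHDC1. The YTHDC1 site, chr4:68350057, lies 33 bases after the annotated start and was listed in ascorbic acid 2 alone, at 11.8% of 136 reads.

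The libraries held between 22592887 and 28562744 A plus G reads over their listed sites, and 98 to 105 sites of the YTH genes each. Of the 138 sites, 75 were listed in all 4 libraries, none of them on fewer than 20 reads, and these were tested; the median of their lowest read number was 185, against 86 over all 78509 tested sites. Whether duplicate reads were removed is not stated, so reads need not be independent molecules. Of 7 genes known to be expressed in this line, 5 had a listed site, VIM among them; KRT8 was listed in the 2 ascorbic acid libraries alone, and PAX2 and LHX1 had none. Of 12 markers of other cell types COL1A1 alone had a listed site, in 3 libraries. The lists hold called m6A sites and not expression, so a gene without a site may still be expressed. The share of A left unconverted, which the authors gave per gene, had a median over genes of 2.72% and 2.87% with ascorbic acid, and of 2.51% and 3.88% in control.

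The m6A level of all 5 YTH transcripts was lower with ascorbic acid. With the reads of a gene's tested sites summed, all 5 fell, with changes between -6.66 percentage points in YTHDF1 and -12.5 in YTHDC2. The change is tested on the odds of A with edgeR's quasi-likelihood test over all 10782 measured genes, of which 56.8% fell and 0.297% rose, and the median change over all genes was -0.39 on the log2 odds scale. Among the 604 genes with at least 20 tested sites, as the YTHDF genes have, 82.0% fell. In each of the 5 the treated pair of libraries was below the control pair, as in 76.7% of all measured genes.

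YTHDF1, on chromosome 20 (chr20:63195429-63216131, minus strand, GRCh38.p14), had summed levels of 46.2% and 45.8% in the ascorbic acid libraries over its 22 tested sites, against 52.1% and 53.2% in control. The groups did not overlap. The means were 46.0% ± 0.284 with ascorbic acid and 52.7% ± 0.781 in control (SD, n = 2 each), a log2 odds change of -0.39 (SE 0.07, edgeR adjusted p = 0.0001). YTHDF2, the reader tied to deadenylation, lies at chr1:28736624-28769775 on the plus strand. Its 21 tested sites gave 59.7% and 58.9% with ascorbic acid, against 65.3% and 66.8% in control. This was the highest level of the 5 genes in every library. The change was -6.75 percentage points, or -0.42 on the log2 odds scale (SE 0.07, edgeR adjusted p = 3.01e-05). Over all sites that each library lists, which differ between libraries, the YTHDF2 levels overlapped, at 57.3% and 58.9% with ascorbic acid and 56.2% and 64.2% in control. YTHDF3, at chr8:63168553-63212788 on the plus strand, had 56.5% and 56.1% with ascorbic acid over 23 sites, against 63.8% and 63.7% in control. The SD between replicates was 0.238 points with ascorbic acid and 0.0690 points in control, against a change of -7.46 points (log2 odds change -0.45, SE 0.07, edgeR adjusted p = 3.25e-05). Over all listed sites its change was -4.28 points, with 57.7% and 53.0% against 59.5% and 59.8% in control.

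YTHDC1, the nuclear reader (chr4:68310387-68350090, minus strand), rested on 5 tested sites. Its levels were 32.8% and 35.9% with ascorbic acid, against 41.3% and 41.8% in control. The groups did not overlap, but the treated pair was wider apart than the control pair (34.3% ± 2.23 and 41.5% ± 0.365, SD, n = 2 each). Over all sites that each library lists, the YTHDC1 levels overlapped, at 30.0% and 24.5% with ascorbic acid and 37.7% and 29.4% in control. Over the tested sites the log2 odds change was -0.44 (SE 0.14, edgeR adjusted p = 0.00935). This call was lost with DESeq2 (adjusted p = 0.103) and when ascorbic acid 1 was left out of the edgeR test (adjusted p = 0.146), within a range of 0.00647 to 0.146 over the alternatives. YTHDC2, the helicase (chr5:113513694-113595284, plus strand), had 4 tested sites. It stood at 32.3% and 30.2% with ascorbic acid, against 44.3% and 43.2% in control. Its change was -12.5 points (31.2% ± 1.53 with ascorbic acid and 43.7% ± 0.799 in control, SD, n = 2 each), or -0.78 on the log2 odds scale (SE 0.17, edgeR adjusted p = 0.000521). Between 271 and 431 reads per library stand behind YTHDC2 and 515 to 601 behind YTHDC1, against 9964 to 11121 for YTHDF2. Whether the change in YTHDC2 differs from that in the other YTH genes was not tested.

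**Figure D1:**
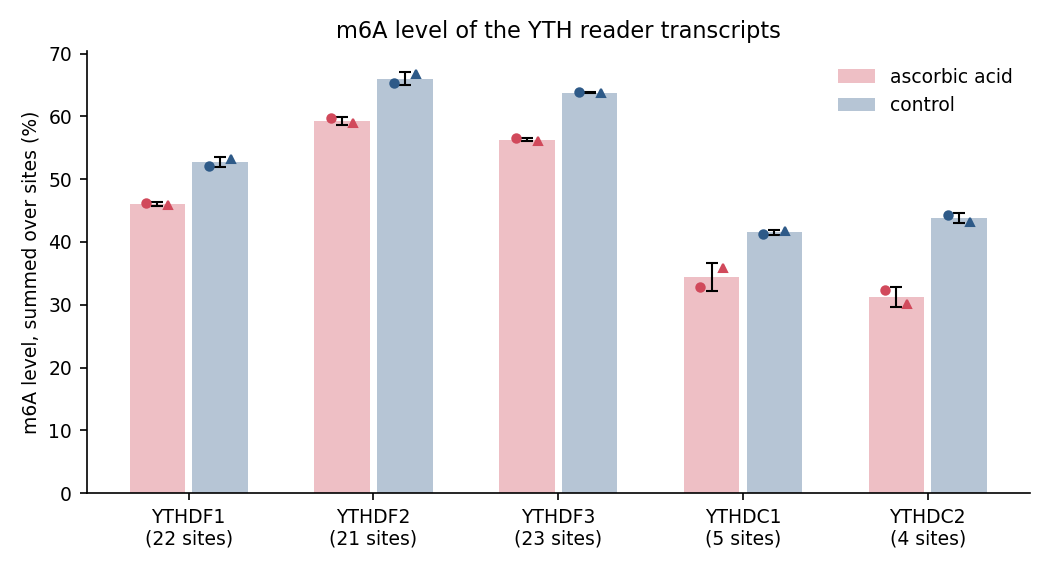
m6A level of each YTH gene, in percent of A among A plus G reads summed over its tested sites. Bars are means of 2 libraries, error bars SD, and points the libraries (circle for replicate 1, triangle for replicate 2), with ascorbic acid left of control. In each gene both ascorbic acid points lie below both control points, for YTHDF2 59.7% and 58.9% against 65.3% and 66.8%.

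In control the order of the genes was YTHDF2, YTHDF3, YTHDF1, YTHDC2 and YTHDC1. Neighbours in this order did not overlap between libraries, although YTHDC2 and YTHDC1 lay close, at 43.7% ± 0.799 and 41.5% ± 0.365. With ascorbic acid YTHDC2 (31.2% ± 1.53) came below YTHDC1 (34.3% ± 2.23), a difference of the size of their spread, so the order of these 2 cannot be told. Among all measured genes the control levels of YTHDF2 and YTHDF3 stood at percentiles 89.3 and 86.9, that of YTHDF1 at 69.6, and those of YTHDC2 and YTHDC1 at 50.3 and 45.0. By number of tested sites the YTHDF genes were at percentiles 95.8, 95.2 and 96.3 (YTHDF1, YTHDF2, YTHDF3), and YTHDC1 and YTHDC2 at 51.9 and 43.4. The YTHDF transcripts are thus among those with the most tested sites, whereas both YTHDC transcripts are near the middle by this count, although they had 18 and 21 listed sites. The count depends on read depth, as a site needed 20 reads in every library. Control coverage stood at percentiles 75.5, 88.5 and 60.8 (YTHDF1, YTHDF2, YTHDF3), and at 52.1 and 52.5 (YTHDC1, YTHDC2). How far depth accounts for the site counts was not tested. In size of change the YTHDF genes and YTHDC1 were near the middle. Of all measured genes 50.8% had a more negative log2 odds change than YTHDF1, 47.1% than YTHDF2, 43.3% than YTHDF3 and 44.3% than YTHDC1. For YTHDC2 this share was smaller, at 18.5%.

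The unconverted share of the YTH genes was highest in control 2 for each gene. In YTHDF2 it was 4.62% and 4.72% with ascorbic acid, against 4.57% and 5.96% in control. In YTHDC2 it was 2.04% and 2.33% with ascorbic acid, against 1.91% and 3.27% in control. As an unweighted mean over sites, the level changed by -5.88 points in YTHDF1, -6.40 in YTHDF2, -6.65 in YTHDF3, -5.67 in YTHDC1 and -9.91 in YTHDC2. With the unconverted share taken off each site, the same means changed by -5.89, -6.48, -6.66, -5.62 and -9.87 points.

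The abundance of the reader transcripts was looked at through gene coverage, a mean signal per gene that the authors deposited and that is not defined further. None of the 5 passed the test, and none had an unadjusted p under 0.05, the smallest being 0.0752 in YTHDF1 (limma on log2 values after median-ratio scaling, over 11848 genes, of which 0.253% rose and 0.0422% fell; 1710 had an unadjusted p under 0.05). In bulk samples such as these, fewer cells of a type and less RNA per cell cannot be told apart. YTHDF2 had the highest scaled coverage, 446 and 442 with ascorbic acid against 449 and 433 in control (log2 change 0.01, adjusted p = 0.956). YTHDF1 had 240 and 242 with ascorbic acid, against 210 and 229 in control; its groups did not overlap, but its log2 change of 0.14 (SE 0.06) had an adjusted p of 0.399. YTHDF3 had 130 and 138 with ascorbic acid, against 130 and 126 in control (log2 change 0.06, adjusted p = 0.673).
The nuclear and helicase readers had lower coverage, and their groups overlapped. YTHDC1 had 90.05 and 97.1 with ascorbic acid, against 100.9 and 95.1 in control (log2 change -0.07, adjusted p = 0.688). YTHDC2 had 97.1 and 107 with ascorbic acid, against 98.8 and 99.8 in control (log2 change 0.04, adjusted p = 0.846). The sign of the coverage change of YTHDF2, YTHDC1 and YTHDC2 turned under at least 1 other scaling or with 1 library left out, so no direction is given for them.

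**Figure D2:**
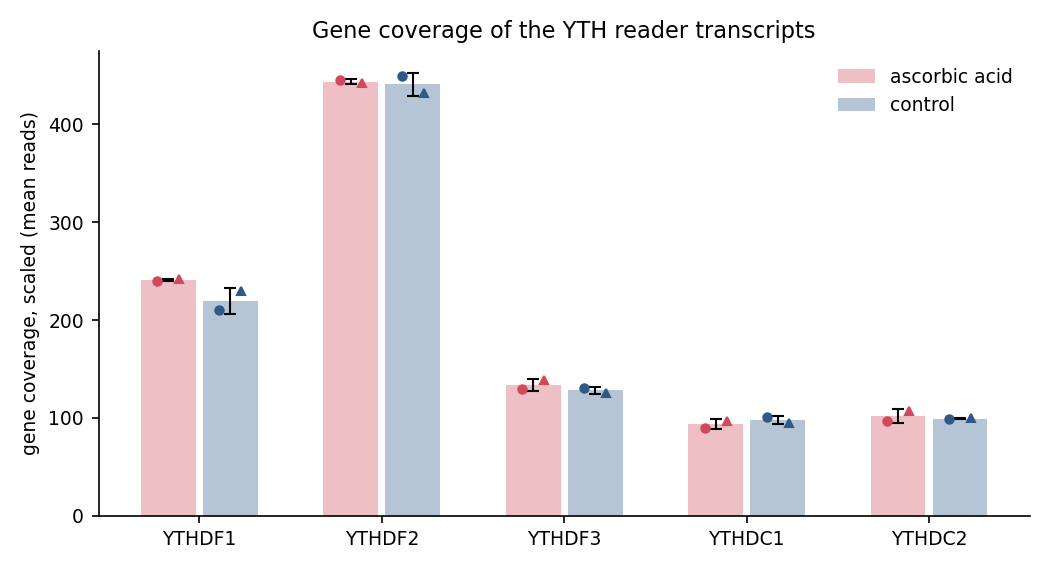
Gene coverage of the YTH genes after median-ratio scaling, in mean reads as the deposited header implies. Bars are means of 2 libraries, error bars SD, points the libraries (circle for replicate 1, triangle for replicate 2), with ascorbic acid left of control. YTHDF2 stands highest, at 446 and 442 against 449 and 433, and none of the genes passed the test.

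Of single sites, 34 of the 75 tested sites of the YTH genes fell with ascorbic acid, 0 rose, and 41 did not pass by edgeR. These 34 are 45.3% of the 75, where 25.7% of all tested sites fell and 0.220% rose (edgeR adjusted p under 0.05). At an unadjusted p under 0.05 it was 40 that were lower and 0 that were higher, for which no share over all sites is given. By gene 9 sites fell in YTHDF1, 12 in YTHDF2, 10 in YTHDF3, 1 in YTHDC1 and 2 in YTHDC2. The mean level was lower with ascorbic acid at 66 sites and higher at 9; of all tested sites 82.9% were lower. The treated pair was below the control pair, with no overlap, at 53 sites (70.7%, against 55.4% of all tested sites) and above it at 2 (2.67%, against 4.22%). Those 2 are YTHDF3 chr8:63187111, with 41.0% and 34.4% against 31.8% and 29.5% in control (edgeR adjusted p = 0.313), and YTHDF1 chr20:63203359, with 20.0% and 22.3% against 19.0% and 19.0% in control (adjusted p = 0.66). The median level of the 75 sites was 45.0% with ascorbic acid and 51.8% in control, and over all tested sites it was 33.9% and 40.9%. The number of calls depends on the test and on each library. DESeq2 called 17 of the 75 (12.3% of all sites fell), limma 8 (13.3%) and Fisher's exact test on pooled reads 35 (26.9%). All of these were falls, so that 0 rose by any of these tests. The YTH share was above that of all sites with edgeR, DESeq2 and Fisher's exact test, but below it with limma. With any 1 library left out edgeR called fewer of the YTH sites.

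The sites that fell were mostly those with high levels, in the YTH genes as in the rest. Of 15 YTH sites at 10 to 30% in control, 1 fell (6.67%), with a median change of -1.51 percentage points. Of 28 at 30 to 60%, 9 fell (32.1%), and the median change was -5.78 points. Of 15 at 60 to 90%, 9 fell, with a median of -7.19 points. Of 17 at 90% or more, 15 fell (88.2%), with a median of -8.80 points, and at each of those 17 the treated pair was below the control pair. The treated pair was also below at 83.3% of all tested sites of this class, and at 92.5% of those with at least 100 reads in every library. Over all tested sites the shares that fell in the same classes were 8.38%, 21.6%, 43.2% and 61.0%, and the medians -2.02, -6.17, -9.97 and -8.64 points. The YTH sites are read more deeply than most, and among sites with at least 100 reads in every library the shares were 10.0%, 31.6%, 66.7% and 92.9% for the YTH genes, against 13.6%, 36.8%, 60.1% and 79.9% for all sites. The control level that defines these classes also enters the change. A site also had to be listed at 10% or more in every library to be tested. In the lowest class a larger loss would therefore take a site out of the test, which limits the changes seen there.

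**Figure D3:**
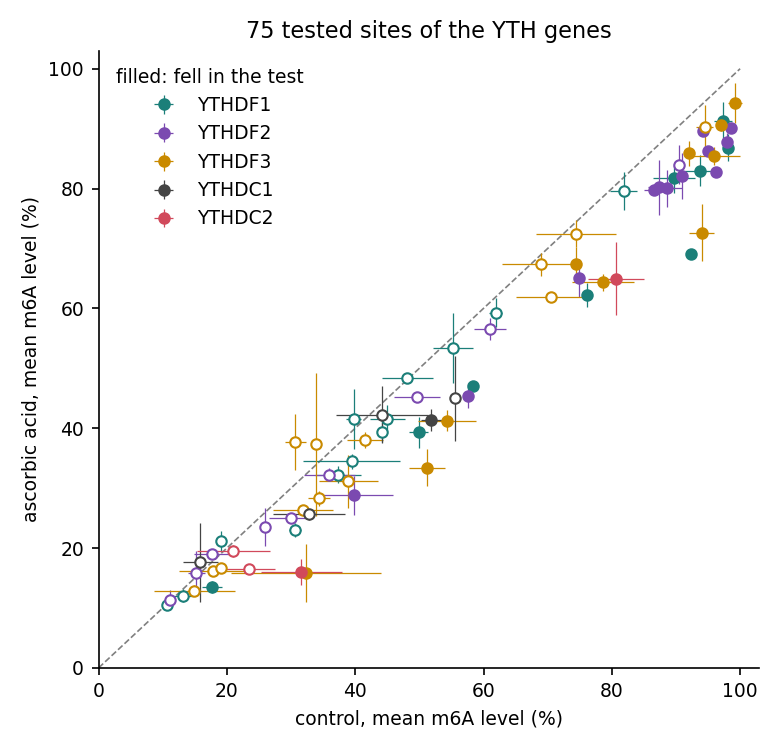
Mean m6A level of the 75 tested sites with ascorbic acid (vertical axis, %) against control (horizontal axis, %), with SD of 2 libraries as bars and colours for the genes. Filled points are the 34 sites that fell, and most of the points lie below the dashed line of equal levels, as 66 of the 75 were lower.

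**Figure D4:**
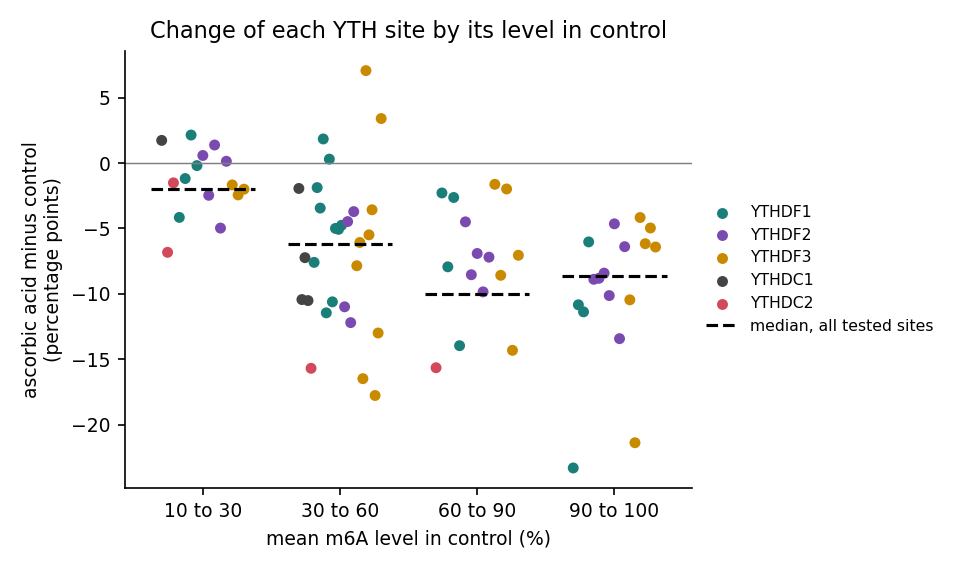
Difference in mean m6A level, ascorbic acid minus control in percentage points, of each tested YTH site, grouped by its level in control (%). Dashed lines are the medians over all tested sites, -2.02, -6.17, -9.97 and -8.64 points; the YTH sites spread around them, with YTHDF1 chr20:63203670 lowest at -23.3 points.

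In the YTHDF genes the sites lie packed in a few stretches, set apart here where neighbours are over 1000 bases from each other. YTHDF1 had 22 listed sites within 1282 bases (chr20:63202420-63203701), with a median gap of 39 bases. Of the 17 tested there 7 fell, and the summed level was 47.6% and 47.0% with ascorbic acid, against 52.6% and 52.5% in control. Over all tested sites 25.7% fell, from 8.38% of those at 10 to 30% in control to 61.0% of those at 90% or more. YTHDF2 had 25 within 1314 bases (chr1:28742540-28743853), and 11 of its 18 tested sites fell, with summed levels of 60.7% and 60.1% against 66.4% and 68.1% in control. YTHDF3 had 31 within 1413 bases (chr8:63186284-63187696), where 6 of 17 fell and the summed levels were 48.6% and 48.1% against 55.7% and 56.8% in control.
The 3 paralogs thus share a dense stretch of nearly the same length. It holds 16 of their 17 sites at 90% or more in control, 4 in YTHDF1, 7 in YTHDF2 and 5 in YTHDF3. Exon boundaries were not available for the build, so where these stretches lie in the coding sequence is not given here. Neighbouring sites are covered in part by the same reads and are not independent.

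Each YTHDF gene had another, shorter group of sites near its end. That of YTHDF1 (chr20:63195516-63196673) lies 87 to 1244 bases from the annotated gene end, with 43.8% and 43.8% with ascorbic acid against 51.2% and 54.5% in control. Of its 5 tested sites 2 fell. That of YTHDF2 (chr1:28769032-28769654) had 52.9% and 50.6% over 2 tested sites, against 56.1% and 58.8% in control, and 1 of these sites fell. In YTHDF3 the group spans 270 bases (chr8:63209751-63210020) and lies farther in, 2768 to 3037 bases from the annotated gene end. Of its 6 tested sites, at 33.9% to 97.0% in control, 4 fell. Over all tested sites 25.7% fell, from 8.38% of those at 10 to 30% in control to 61.0% of those at 90% or more. The summed level of the YTHDF3 group was 70.6% and 70.1% with ascorbic acid, against 78.9% and 78.8% in control. The changes in the terminal groups, -9.05, -5.72 and -8.49 points, were of the same order as those in the dense stretches, -5.22, -6.84 and -7.91 points, and the differences between stretches were not tested. The listed sites of the YTHDC genes are scattered more widely, but many of them were listed in a single library. YTHDC1 had 18 listed sites in 6 stretches over most of its 39704 bases. Its tested sites lie in chr4:68337095-68337696 (3 tested), chr4:68322769-68322854 (1) and chr4:68313859-68313932 (1). The other YTHDC1 stretches had no tested site. In YTHDC2 all 4 tested sites lie within the last 1919 bases of an 81591-base gene, in a stretch of 10 listed sites (chr5:113593365-113595115).

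**Figure D5:**
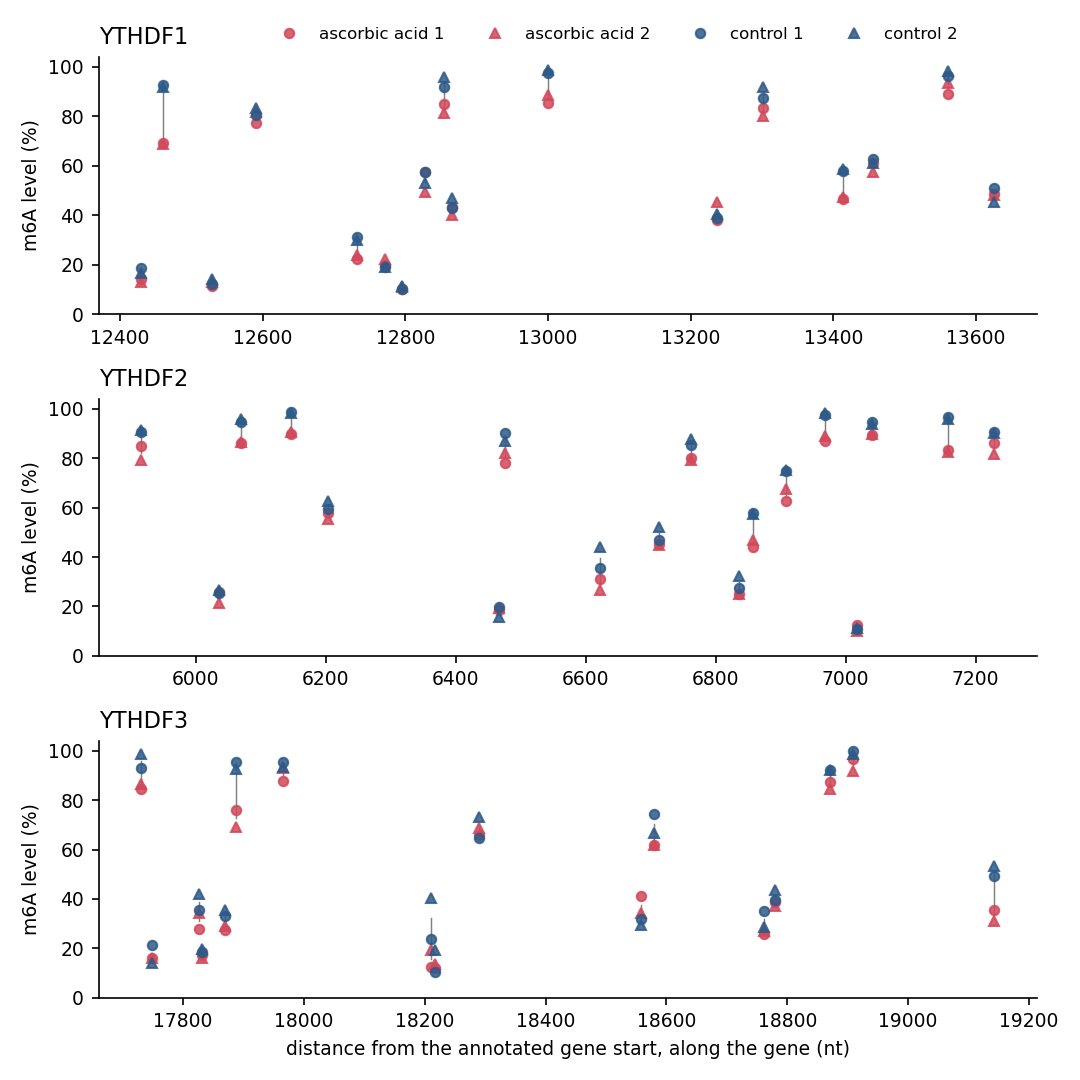
m6A level (%) of each tested site in the dense stretch of YTHDF1, YTHDF2 and YTHDF3, against distance from the annotated gene start along the gene in nucleotides (introns included). Circles and triangles are replicates 1 and 2, with ascorbic acid in red and control in blue. High and low sites alternate over short distances. At the 16 sites of 90% or more in control both red points lie below both blue points, as at 83.3% of all tested sites of that level.

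YTHDF1 held the site with the greatest change in level of all 75. At chr20:63203670, 69.1% and 68.8% of reads carried A with ascorbic acid, against 92.5% and 92.0% in control (301 to 414 reads per library), a log2 odds change of -2.42 (edgeR adjusted p = 2.72e-12). At chr20:63203276 the levels were 84.8% and 81.1% with ascorbic acid, against 91.7% and 95.8% in control (adjusted p = 2.52e-05; lost with limma, at 0.0607). The most methylated YTHDF1 site, chr20:63203131, had 85.2% and 88.4% with ascorbic acid and 97.7% and 98.7% in control (adjusted p = 0.000489). The most deeply read, chr20:63195516 in the terminal group, had 63.6% and 60.9%, against 75.7% and 76.7% in control (568 to 751 reads, adjusted p = 2.56e-07; 0.0513 with limma). One YTHDF1 site was listed in both libraries of one group and in neither of the other: chr20:63196472, at 14.1% and 12.6% in control on 128 and 119 reads, close to the lower limit of 10% of the lists.

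In YTHDF2 the 4 sites with the smallest p were all above 94% in control. The highest, chr1:28742771, had 89.7% and 90.7% with ascorbic acid, against 98.9% and 98.3% in control (log2 odds change -2.92, edgeR adjusted p = 1.69e-10). At chr1:28743781 the levels were 83.3% and 82.4% with ascorbic acid, against 96.7% and 95.9% in control (-2.39, adjusted p = 5.69e-10). At chr1:28743593 they were 86.8% and 88.8%, against 97.6% and 98.3% in control (adjusted p = 9.79e-10), and at chr1:28742693 86.0% and 86.5%, against 94.4% and 95.7% (adjusted p = 5.51e-09). At these 4 sites 82.4% to 90.7% of reads carried A with ascorbic acid, against 94.4% to 98.9% in control.
The deepest site of all the YTH genes behaved otherwise: chr1:28742659, with 1012 to 1112 reads per library, had 25.8% and 21.2% with ascorbic acid, against 25.4% and 26.5% in control (adjusted p = 0.284). Not every untested site was low. In YTHDF2, chr1:28743736 had 85.9% and 87.5% with ascorbic acid and 96.3% in control 1 (327 to 345 reads) but was not listed in control 2; it was picked after its values were seen.

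YTHDF3 had a site like the strongest one of YTHDF1. At chr8:63186440 the level was 76.0% and 69.3% with ascorbic acid, against 95.4% and 92.6% in control (log2 odds change -2.58, edgeR adjusted p = 1.36e-08). In the terminal group chr8:63209905 had 91.3% and 89.9%, against 97.0% and 97.0% in control (492 to 593 reads, adjusted p = 2.59e-06). Nearby, chr8:63209821 had 63.3% and 65.3%, against 82.0% and 75.3% in control (adjusted p = 0.000215; 0.0795 with limma). The highest YTHDF3 site, chr8:63187462, read A in 96.6% and 92.0% with ascorbic acid, against 100% and 98.5% in control (adjusted p = 0.00281), a call lost with limma and without control 1 or ascorbic acid 2.

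The single call in YTHDC1 was its deepest site, chr4:68337095, with 40.1% and 42.7% with ascorbic acid, against 53.0% and 50.7% in control (log2 odds change -0.60, edgeR adjusted p = 0.0368). This call did not hold when any 1 of the 4 libraries was left out, and its adjusted p ranged from 0.0285 to 0.383 over the alternatives. At chr4:68313932, the highest site of the gene, 40.0% and 50.0% stood against 55.2% and 55.8% in control (adjusted p = 0.159). In YTHDC2, neighbouring sites 10 bases apart both fell. At chr5:113593535 the level was 14.4% and 17.5% with ascorbic acid, against 36.1% and 27.2% in control (-1.31, adjusted p = 0.0013), and at chr5:113593545 it was 69.3% and 60.7%, against 83.7% and 77.5% in control (-1.19, adjusted p = 0.0052). Sites this close share reads, so they are not separate evidence. Both calls were lost with limma, with DESeq2 and without control 1, the second also without ascorbic acid 2; their largest adjusted p were 0.0965 and 0.178. The remaining YTHDC2 sites, chr5:113593797 and chr5:113594633, did not pass.

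YTHDF1 has a pseudogene, YTHDF1P1, on chromosome 5, and a read from either copy may be assigned to the other. It had 11 listed sites, and 8 of these line up with listed YTHDF1 sites in 2 runs of constant spacing. Its summed level was 68.2% and 65.8% with ascorbic acid over 5 tested sites, against 73.0% and 75.2% in control (log2 odds change -0.51, edgeR adjusted p = 0.035), on 220 to 294 reads. At chr5:97370147 the pseudogene had 88.1% and 85.3% with ascorbic acid, against 100% and 98.8% in control, on 59 to 84 reads. The matching YTHDF1 position, chr20:63202537, was listed in control 1 alone, on 32 reads. Values of YTHDF1 at these positions are therefore uncertain. Adding the pseudogene reads to YTHDF1 gave a change of -6.46 points and leaving the matched sites out gave -7.26, both settings chosen after seeing the data, against -6.66 as deposited. YTHDF2P1 had 1 listed site, YTHDF3P1 none, and the antisense gene YTHDF3-AS1 7.

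The genes whose summed levels were most like those of the YTH genes, by root mean square difference over the 4 libraries among 7235 genes with at least 3 tested sites, were ERLIN1 for YTHDF1 (0.434 points), PPP2R2A for YTHDF2 (0.751), WDR45B for YTHDF3 (0.523), ZNF32 for YTHDC1 (0.543) and ATP2B1 for YTHDC2 (0.659). Such likeness was common: 236 genes lay within 2 points of YTHDF1 and 63 of YTHDF2.

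Transcripts of other proteins of the m6A pathway were measured in the same way, by lists. Of 12 writer genes 11 were measured, and 7 fell and 4 did not pass (edgeR adjusted p under 0.05; 56.8% of all genes fell). Their median log2 odds change was -0.31, against -0.39 over all genes. METTL3, the catalytic subunit of the main methyltransferase, had 28.3% and 28.7% with ascorbic acid, against 45.3% and 45.2% in control (-1.05, adjusted p = 1.19e-07). VIRMA, a scaffold of the same complex, changed by -0.68 and PCIF1, which methylates the cap-adjacent adenosine, by -0.66. Both demethylases fell: FTO, at 17.4% and 17.5% against 30.2% and 27.5% in control, and ALKBH5, at 29.9% and 27.0% against 30.5% and 33.9%. Of 14 readers without a YTH domain 6 fell and 8 did not pass, with a median of -0.24. IGF2BP3, an RNA-binding protein linked to transcript stability, had 22.4% and 21.7% with ascorbic acid, against 43.5% and 38.1% in control.

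Among the partners of the YTH proteins, 9 of the 11 CCR4-NOT subunits fell and 2 did not pass, with a median log2 odds change of -0.52 (56.8% of all genes fell, with a median of -0.39). CNOT1, the scaffold that YTHDF2 contacts, had the strongest change of the listed genes: 20.6% and 24.9% with ascorbic acid over 3 sites, against 49.3% and 51.1% in control (-1.76, SE 0.13, edgeR adjusted p = 8.33e-10). CNOT4, a ubiquitin ligase of the complex, had 32.8% and 32.7%, against 46.9% and 46.1% in control. Of 11 other partners 7 were measured, and 4 fell and 3 did not pass, with a median of -0.40. EIF3B, a subunit of the initiation factor linked to YTHDF1, had 36.8% and 36.9% with ascorbic acid, against 52.3% and 52.7% in control (-0.92, adjusted p = 2.23e-10). NXF1, the export receptor linked to YTHDC1, changed by -0.87, and UPF1, a helicase of RNA decay that binds YTHDF2, had 48.9% and 48.8%, against 55.8% and 57.8% in control.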

How the data were processed

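Each library came as a table of called sites. Per the file headers, the A and the A plus G reads of each site are counts deposited by the authors without scaling, and the m6A level is a fraction made by the authors from them. The unconverted share comes from a second fraction, the conversion rate per gene as the authors deposited it. Gene coverage is a signal deposited by the authors, whose unit no source defines. The p-value of each site is the authors' test against background, per the file headers, and was not used. Trimmomatic 0.39, STAR and the build hg38 (GRCh38) appear in the submitters' processing notes; the program that called sites is not stated there. Every listed site has 15 or more A plus G reads, 5 or more A reads and a level of 10% or more. Losses to under 10% and rises from under 10% could therefore not be measured.

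A site was tested if every library listed it with 20 reads or more. The test was edgeR 4.0.16 (quasi-likelihood, a term per library, treatment effect on the odds of A). Sums of these reads per gene were tested alike, and 1 read can count at several sites. Coverage was tested with limma 3.58.1 on log2 values. Fits ran on the whole tables, with Benjamini-Hochberg adjustment over all features, threshold 0.05, two-sided. DESeq2 1.42.0, limma on log2 odds with 0.5 added, Fisher's exact test, other read minimums and replicates left out were alternatives. So was leaving out sites that have a listed site 6 bases away. An exact permutation test of 2 against 2 could not go below p = 0.333 and was not used. R 4.3.3 and Python 3.11.15 were used; gene positions and sequences are RefSeq's (GRCh38.p14).

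The members, gene lists and alternatives were chosen with earlier results of these data known. Sites named are, per gene, up to 4 with the smallest p, the highest control level and the most reads; those at transcript starts, in the pseudogene and of stated exception were added after their values were seen. Genes of a list are named by smallest p, up to 3.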

Additional observations from a re-analysis of the deposited data

How the results depend on the processing

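All 5 YTH genes kept their direction of m6A change under every alternative run, and YTHDF1, YTHDF2, YTHDF3 and YTHDC2 kept their side of the threshold; YTHDC1 did not with DESeq2 (-0.44) or in the range over left-out replicates, -0.54 to -0.34. Called YTH sites were 34 with edgeR, 8 with limma and 17 with DESeq2, all among the 34, and 20 to 24 with a replicate left out. All called sites were 20361, with 10501 by limma, 9678 by DESeq2 and 12546 to 17002 with a replicate left out; called genes were 6151, and 3916 by DESeq2. Genes called in coverage were 35, with 71 after scaling by the total, 121 without scaling and 17 to 266 with a replicate left out. Replicate numbers are shared by the groups, but same-numbered libraries did not deviate together (r = -0.01 over sites and -0.16 over coverage). With the replicate block 35 YTH sites and 92 genes in coverage were called, and with the crossed replicate block, chosen after seeing the data, 107 genes in coverage. Coverage turned sign for YTHDC1 without scaling (0.0216), and over left-out replicates for YTHDF2 (-0.0173 to 0.0375) and YTHDC2 (-0.0328 to 0.108), as did the uncalled sites chr5:113594633 (-0.12, with -0.45 to 0.25 over left-out replicates) and chr4:68337357 (0.22, with -0.32 to 0.61). Over all sites that each library lists, which differ between libraries, YTHDF2 changed by -2.11 points in place of -6.75 and YTHDF3 by -4.28 in place of -7.46. YTHDC1 changed by -6.31 points in place of -7.18, and in YTHDF2 and YTHDC1 the groups then overlapped. Of the 15 named sites that fell, 8 passed every alternative that tested them: chr20:63203670 and chr20:63203131 in YTHDF1, chr1:28742693, chr1:28742771, chr1:28743593 and chr1:28743781 in YTHDF2, and chr8:63186440 and chr8:63209905 in YTHDF3. Of these chr20:63203131 has a listed site 6 bases away, so the alternative without such sites did not test it. The YTHDC genes rest on 271 to 601 reads per library. Beyond the stated cases the causes were not tested.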

Other observations

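The YTHDF2 site on the start base of one of its RefSeq windows was not the only such site. Of 5353 listed sites inside RefSeq promoter windows, 1520 (28.4%) lay exactly on the start base of a window. Of these 722 were tested, and 3 fell and 5 rose (edgeR adjusted p under 0.05). The median level of these start sites was 30.1% with ascorbic acid and 29.6% in control. Of all tested sites 25.7% fell, with 8.38% of those at 10 to 30% in control and 21.6% of those at 30 to 60%. The base in the RefSeq window was A at all 5683 matches of a site to a window. These values were looked for after the YTHDF2 site had been seen, and no difference between start sites and other sites was tested.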
